A study of Mus musculus with 48 samples.

Results

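The 494 genomic positions described here are induced distal starts, places where capped RNA began in a mouse T hybridoma. They carried no gene name and lay away from every start named for a single gene. All were more active under the strongest antigen stimulation than without antigen. They were picked from 18025 tag clusters of the hybridoma table by 3 conditions. The cluster had no gene symbol, no cluster with a single gene symbol lay within 1000 bp on either strand, and (mean + 1)/(mean + 1) of RPM (tag counts scaled to the size of the library), 10000 against 0 nM peptide without PD-1 engagement, was at least 2. Of 4477 unnamed clusters, 3645 were distal and 494 of these (13.6%) reached the fold. In the opposite direction, 198 distal unnamed clusters were at least 2-fold lower. The fold chose the starts, so their rise between 0 and 10000 nM in unengaged libraries is given as a description. The last starts inside the threshold had folds of 2.0, 2.003 and 2.005, and the first outside had 1.998, 1.996 and 1.994. The start with 1.998 lay beside Ddx3x, which also had 5 starts inside.

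CAGE (cap analysis of gene expression) reads the first bases of capped RNAs and so maps where transcription starts. Active enhancers also start capped RNAs, mostly short and unstable and often in both directions, and tags can also fall on spliced or recapped RNA inside genes, so an unnamed start is a position and not by itself an enhancer. PD-1 is an inhibitory receptor of T cells that, when bound by its ligand, recruits phosphatases which dampen signalling from the T cell receptor.

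The study set T cell receptor stimulation with PD-1 engagement against stimulation without it. DO11.10 T hybridoma cells, a fusion line labelled BALB/c x AKR/J, received pOVA (the ovalbumin peptide that their receptor recognises) at 0, 1, 10, 100, 1000 or 10000 nM, with PD-1 engagement or without it, in 2 libraries per group and 3 at 10000 nM, which makes 26 libraries. Primary mouse CD4+ T cells (BALB/cCrSlc) received the anti-CD3 antibody 2C11 at 0 to 10000 ng/ml under the same pair of conditions in 22 libraries, held in a separate table and used here only to look up matching starts. The hybridoma is a fused tumour line, and the labels do not say whether libraries of a group came from separate cultures, so p-values measure the spread between these libraries, which may be technical.

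The hybridoma libraries held 7.79 to 19.7 M tags (megatags), so that 1 tag was worth 0.0508 to 0.128 RPM. Every cluster of the table reached at least 3.01 RPM in some library, so a start near 0 at low dose is in the table because it was higher elsewhere. All 494 starts passed the filter on low values (1 RPM in 2 libraries), as did 18014 of 18025 clusters. Of 12 listed T cell markers 11 were measured, none at 0 in any library, and they summed to 1508 to 2298 RPM. Of 13 listed B cell markers 12 were measured, none at 0 in any library. They summed to 897 RPM (engaged) and 1096 RPM (unengaged) in the 0 nM libraries of replicate 2, and to 79.5 to 261 RPM in the other 24. With the mean log2(RPM + 1) of these B cell markers as a covariate, 402 starts rose between 1000 and 1 nM and 154 fell with PD-1 engagement. Without the covariate the counts were 389 and 131, beside 9.83% and 1.59% of all clusters. The shares of all clusters with the covariate are not given here. The 0 nM libraries enter the spread that all hybridoma fits share. Their levels enter no comparison below except where named. With both 0 nM libraries of replicate 2 left out, 401 starts rose between 1000 and 1 nM and 145 fell with PD-1 engagement. For this setting too, the shares of all clusters are not given. In bulk libraries, fewer cells of a type and less RNA per cell cannot be told apart.

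Genome sequence of the build of the deposited positions (mm9) was not used here, so the starts are given by position. The RefSeq promoters of Nr4a1, Nr4a3 and Fasl are printed 5′ to 3′ over the 250 bases before the annotated start. They are from GRCm38.p6, a different build from the positions of the starts. These T cell activation genes each had at least 3 induced distal starts nearest to them and themselves fell with engagement. Fosl2 and Egr3 also met this description, and their promoters are not shown. The 3 genes were picked without a further rule, so the counts below do not stand for all such genes. Capitals mark CGTCA or its reverse complement TGACG, the short form of the cAMP response element; TGANTCA, an AP-1 element, was also searched on both strands and was in none of the 3.
Nr4a1 (chr15:101266596-101266845, plus strand): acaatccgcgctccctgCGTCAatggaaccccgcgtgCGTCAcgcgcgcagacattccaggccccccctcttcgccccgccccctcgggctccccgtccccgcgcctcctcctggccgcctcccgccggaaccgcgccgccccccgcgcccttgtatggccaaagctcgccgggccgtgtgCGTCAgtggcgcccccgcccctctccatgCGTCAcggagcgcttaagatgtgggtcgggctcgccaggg
Nr4a3 (chr4:48045055-48045304, plus strand): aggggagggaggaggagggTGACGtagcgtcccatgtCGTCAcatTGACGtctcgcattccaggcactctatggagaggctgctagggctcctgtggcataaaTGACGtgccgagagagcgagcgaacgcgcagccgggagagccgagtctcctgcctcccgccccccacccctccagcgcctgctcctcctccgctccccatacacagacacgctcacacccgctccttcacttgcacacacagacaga
Fasl (chr1:161788496-161788745, minus strand): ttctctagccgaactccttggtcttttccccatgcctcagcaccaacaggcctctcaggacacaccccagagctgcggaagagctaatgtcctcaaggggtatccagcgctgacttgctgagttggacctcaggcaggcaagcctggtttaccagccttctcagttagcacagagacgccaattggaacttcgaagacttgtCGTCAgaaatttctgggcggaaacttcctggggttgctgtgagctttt
Nr4a1 and Nr4a3 each held 4 copies of the short element and Fasl held 1. Of 32536 RefSeq promoter windows of this length, 17.9% held at least 1 copy and 0.69% held 3 or more. The full element TGACGTCA was in none of the 3 and in 1.6% of all windows, and TGANTCA in 6.7%. A match to these letters is a description of the window only.

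By their median level, the starts were nearly silent up to 10 nM and active from 100 nM, though single starts were already active at low dose. Their median level in libraries with PD-1 engagement was 0.512, 0.607, 0.648, 1.515, 3.095 and 3.408 RPM at 0, 1, 10, 100, 1000 and 10000 nM, and without engagement 0.575, 0.63, 0.77, 2.645, 4.358 and 4.762 RPM. Per library, the median was 1.33 and 1.68 RPM in engaged and 2.65 and 2.58 RPM in unengaged libraries at 100 nM, and 3.01 and 3.06 RPM in engaged and 3.99 and 4.56 RPM in unengaged libraries at 1000 nM. Engaged libraries were below unengaged ones at both doses with no overlap. The highest unengaged mean lay at 10000 nM for 328 starts, at 1000 nM for 158, at 100 nM for 6 and at 1 nM for 2. The midpoint dose, where the unengaged curve of means passed the middle of its rise from 0 to 10000 nM (interpolated on log10 dose), had a median of 110.9 nM (quartiles 52.4 and 231.9 nM). It was 77.7 nM for the 515 single-symbol clusters with the same fold. The midpoint fell between 10 and 100 nM for 211 starts, between 100 and 1000 nM for 243, under 10 nM for 21 and at or over 1000 nM for 19.

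**Figure D1:**
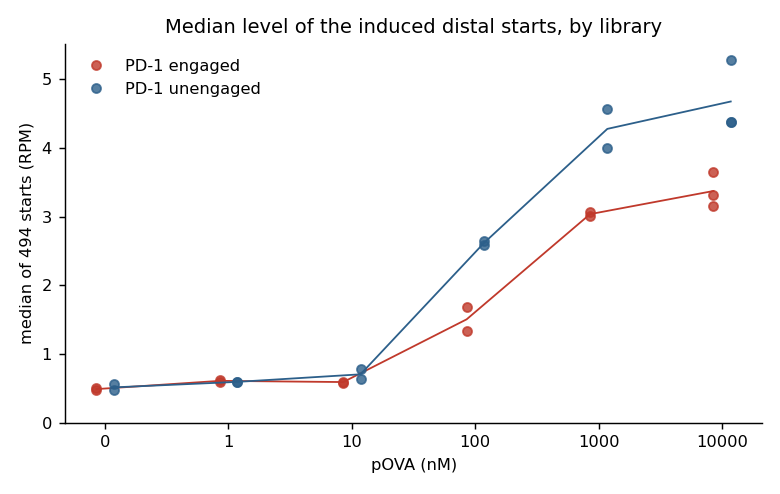
Median level (RPM) of the 494 induced distal starts in each hybridoma library against pOVA dose (nM), with PD-1 engagement (red) and without (blue); points are libraries and lines join their means. The medians stayed under 0.8 RPM up to 10 nM, and engaged libraries lay below unengaged ones from 100 nM upward.

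Doses that the choice of starts did not use showed the same rise. Between 1000 and 1 nM without engagement, 389 of the 494 starts rose and none fell (limma on log2(RPM + 1), adjusted p under 0.05), where 9.83% of all clusters rose and 9.59% fell. The remaining 105 starts did not pass. The median log2 difference was 1.57, against -0.03 over all clusters. At 100 against 1 nM, 290 starts rose and none fell (5.73% of all clusters rose and 1.69% fell), with a median log2 difference of 1.02. At 10 against 1 nM, 2 starts rose (0.0444% of all clusters), and 32 were higher at an unadjusted p under 0.05. Between 10000 and 0 nM, the doses of the choice, 426 starts rose and none fell in engaged libraries (12.3% of all clusters rose and 15.2% fell). The median log2 difference was 1.32. Engaged libraries deviated together with the same-numbered unengaged ones that chose the starts (correlations 0.656 at 0 nM and 0.387 to 0.495 at 10000 nM). The count in engaged libraries is therefore not independent of the choice. This last comparison uses the 0 nM library with the high B cell marker sum, and 364 starts rose without both 0 nM libraries of replicate 2. By the same fits, 420 of the 515 single-symbol clusters with the same fold rose at 1000 against 1 nM, with a median of 1.44.

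The starts were not spread evenly. Chromosome 15 held 82 of them, 28.5% of its distal unnamed clusters, followed by chromosome 9 with 46. Joining starts at most 20 kb apart, a limit chosen after the positions were seen, left 263 starts alone and put 231 into 66 rows, the longest with 30 and 20 starts. Both of these lay on chromosome 15. Starts of a row may share a transcript or an element and are not independent.

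The row of 30 starts spanned 19937 bp at chr15:59973458-59993394, with 26 starts on the plus and 4 on the minus strand, and its nearest named start was that of Trib1, a pseudokinase gene, 493 kb away. All 30 rose between 1000 and 1 nM, with log2 differences of 1.17 to 6.42 (median 2.46). The strongest, chr15:59973458-59973461 on the plus strand, had the largest response of all 494. With engagement it had 0.55 and 0.4 RPM at 1 nM, 31.2 and 32.9 at 100 nM, 84.8 and 93.8 at 1000 nM and 105, 124 and 111 at 10000 nM. Without engagement it had 0.37 and 0.2 RPM at 1 nM, 4.74 and 4.47 at 10 nM, 101 and 73.5 at 100 nM, 102 and 116 at 1000 nM and 135, 162 and 160 at 10000 nM. Engaged libraries were below unengaged ones at 100 and 1000 nM, without overlap. The same held at 10000 nM, where the unengaged libraries had also chosen the starts. Its log2 difference was 6.42 ± 0.17 (SE; adjusted p 7.18e-15, limma) at 1000 against 1 nM, and its PD-1 effect, engaged minus unengaged as the mean of 100 and 1000 nM, was -0.84 ± 0.12 (adjusted p 0.000368).

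Summed over the row, RPM was 1.53 and 1.83 in engaged and 1.99 and 2.11 in unengaged libraries at 1 nM, 77.8 and 117 in engaged and 260 and 232 in unengaged libraries at 100 nM, and 284 and 303 in engaged and 469 and 470 in unengaged libraries at 1000 nM. Both engaged libraries were thus below both unengaged ones at 100 and at 1000 nM, and the engaged libraries differed among themselves more at 100 nM than at 1000 nM. PD-1 effects of the 30 starts ran from -1.26 to -0.33, and 13 passed the test. Trib1 itself also rose, with a log2 difference of 3.69 ± 0.3 (adjusted p 4.22e-08), and its PD-1 effect of -0.53 ± 0.22 did not pass (adjusted p 0.473). About 7 kb into the row a second group held the next strongest start, chr15:59980763-59980946 on the plus strand. It had 50.4 and 54.3 RPM in engaged and 108 and 105 RPM in unengaged libraries at 1000 nM, against 0.07 and 0.34 RPM in engaged and 0.37 and 0.59 RPM in unengaged libraries at 1 nM. On the opposite strand of the same stretch, chr15:59980729-59980849 had a PD-1 effect of -1.26 ± 0.22 (adjusted p 0.00292), the most negative of the row.

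The row of 20 starts surrounded Nr4a1, an orphan nuclear receptor gene and an immediate-early marker of T cell receptor signal strength, from 20.5 kb upstream to 7.6 kb downstream of its strongest start (chr15:101097276-101097283, plus strand). That start had 904 RPM in engaged and 1354 RPM in unengaged libraries at 1000 nM on average, and 20.4 RPM in unengaged libraries at 1 nM. All 20 neighbours rose between 1000 and 1 nM, with log2 differences of 1.39 to 3.97. PD-1 lowered 10 of them past the test, 8 of the 11 upstream and 2 of the 9 downstream starts. A test of upstream against downstream starts was not made. Nr4a1 itself fell by 0.95 ± 0.19 on the log2 scale (adjusted p 0.00765).

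The 5 starts between 8.2 and 10.6 kb upstream all fell with engagement, by log2 effects of -1.63 to -0.77. The start chr15:101087283-101087421 on the minus strand, 9855 bp upstream, had 0 and 0 RPM in engaged and 0 and 0 RPM in unengaged libraries at 1 nM. At 100 nM it had 1.02 and 1.17 RPM in engaged and 7.6 and 7.89 RPM in unengaged libraries, and at 1000 nM 5.38 and 5.58 RPM in engaged and 13.8 and 13.9 RPM in unengaged libraries. The conditions did not overlap at either dose, and the PD-1 effect was -1.63 ± 0.1 (adjusted p 5.97e-08). Its divergent partner 95 bp away, chr15:101087516-101087675 on the plus strand, had a PD-1 effect of -1.35 ± 0.13 (adjusted p 4.65e-06). The 6 starts 12.2 kb or more upstream had effects of -0.87 to -0.34, of which 3 passed. Among them chr15:101084645-101084748 on the plus strand was the strongest upstream of the gene, with 40.5 and 27.3 RPM in engaged and 43.1 and 32.5 RPM in unengaged libraries at 1000 nM. Those values overlapped, while at 100 nM the 16.1 and 16.2 RPM of engaged libraries lay below the 36.6 and 34.1 RPM of unengaged libraries.

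The 9 downstream starts lay within the length of the gene, and 7 of them were on its strand. Of these, chr15:101104444-101104624 had 8.18 and 5.7 RPM in engaged and 8.59 and 8.15 RPM in unengaged libraries at 1000 nM, where the libraries overlapped, and its PD-1 effect of -0.52 ± 0.17 did not pass (adjusted p 0.187). On a gene's own strand, a separate start and tags of the gene's own RNA cannot be told apart. The strongest start on the other strand, chr15:101100938-101100964, rose by 3.97 ± 0.33 (adjusted p 5.2e-08) and fell by 1.01 ± 0.24 with engagement (adjusted p 0.0302).

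**Figure D2:**
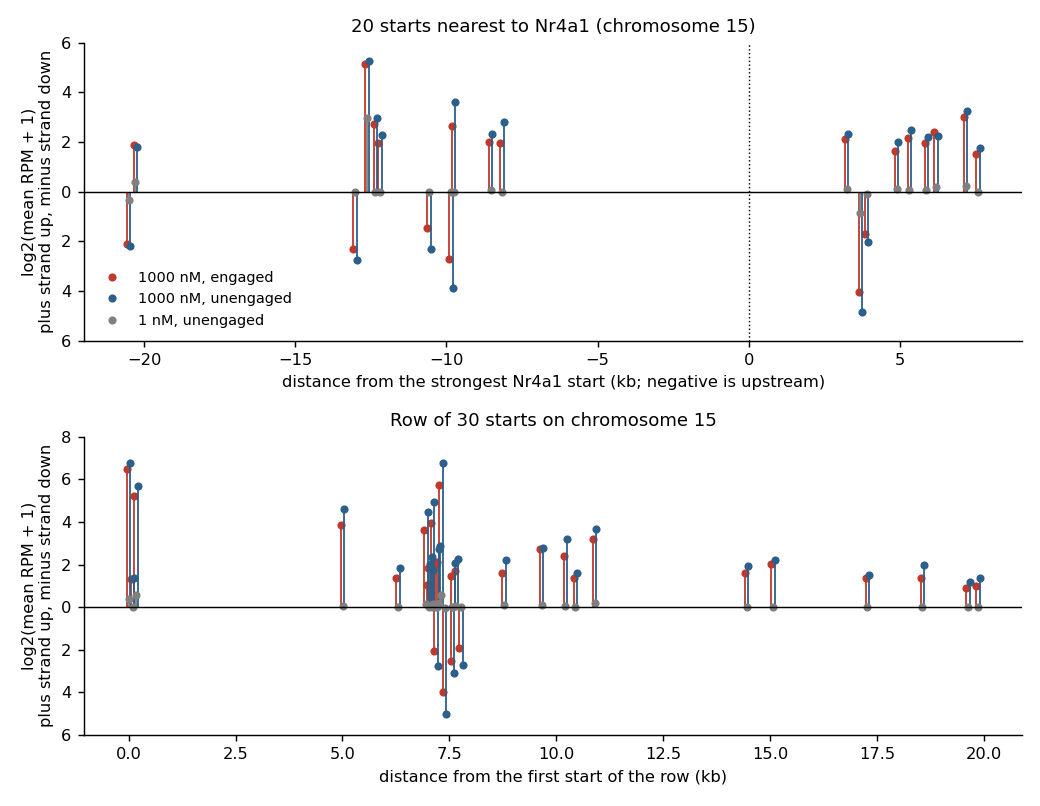
Induced distal starts around Nr4a1 (top, distance from its strongest start in kb) and in the row of 30 starts on the same chromosome (bottom, distance from the first start in kb), with the plus strand drawn up and the minus strand down. Height is log2(mean RPM + 1) at 1000 nM with engagement (red), at 1000 nM without (blue) and at 1 nM without (grey); every start was higher at 1000 than at 1 nM without engagement, and the engaged mean lay below the unengaged mean for all 30 starts of the row and for 18 of the 20 around Nr4a1.

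Other strong starts stood alone or in short rows. The start with the most negative PD-1 effect of all 494 was chr19:16403119-16403127 on the plus strand. It had 0 and 0 RPM in engaged and 0 and 0.2 RPM in unengaged libraries at 1 nM, 3.68 and 6.07 RPM in engaged and 29.8 and 35 RPM in unengaged libraries at 100 nM, and 28 and 23.6 RPM in engaged and 77.5 and 72.6 RPM in unengaged libraries at 1000 nM. The conditions were separate at both doses, with a PD-1 effect of -2.02 ± 0.16 (adjusted p 6.7e-07) and a response of 6.12 ± 0.23 (adjusted p 6.09e-13). Its nearest named start was Gm10819, 60993 bp away. It also lay inside the length of Gnaq, which encodes a G protein alpha subunit, on the same strand, yet the strongest named Gnaq start had only 1.72 and 1.62 RPM in engaged and 1.74 and 2.24 RPM in unengaged libraries at 1000 nM. The Gnaq start had a log2 difference of -0.23 ± 0.32 that did not pass (adjusted p 0.678).

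On chromosome 12, chr12:111631791-111631906 on the minus strand, 53401 bp from Ppp2r5c, a regulatory subunit gene of phosphatase PP2A, had 39.5 and 42.5 RPM in engaged and 51.6 and 51.4 RPM in unengaged libraries at 1000 nM, against 0 and 0 RPM in engaged and 0 and 0.2 RPM in unengaged libraries at 1 nM. Its midpoint dose was 47.44 nM, and already at 10 nM it had 0.17 and 0.07 RPM in engaged and 1.46 and 2.13 RPM in unengaged libraries. On chromosome 6, chr6:124015822-124015959 on the plus strand, 349089 bp from Pex5, rose by 4.76 ± 0.28 (adjusted p 3.38e-10) and fell by 1.26 ± 0.2 with engagement (adjusted p 0.00104).

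A set of 4 starts on chromosome 19 formed a row of 646 bp that lay 86.6 to 87.2 kb downstream of the start of Cd274, the gene of the PD-1 ligand PD-L1, and 67626 to 68192 bp from C030046E11Rik, the nearest named start. All 4 rose and 2 fell with engagement; the strongest response was 2.89 ± 0.18 (adjusted p 7.33e-10). Closer to Cd274, 3 starts 5.0 to 19.4 kb downstream of its start rose by 1.93 to 2.41, and none of the 3 passed the PD-1 test, with effects of -0.51 to -0.47. The Cd274 start rose by 3.68 ± 0.41 (adjusted p 2.45e-06), with a PD-1 effect of -0.68 ± 0.29 (adjusted p 0.546).

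Dnmt3a, a DNA methyltransferase gene, was the nearest named gene of 7 starts, of which 6 rose and 3 fell with engagement. It had 2 named starts. The stronger, chr12:3806979-3807053 on the plus strand, was nearest to 3 of the 7, which lay 27.7 to 28.7 kb downstream, and had a log2 difference of 0.01 ± 0.24 (adjusted p 0.987). The weaker, chr12:3907695-3907758, was nearest to the other 4, which lay 65277 to 73943 bp downstream of it, and rose by 1.19 ± 0.25 (adjusted p 0.00219), with a PD-1 effect of -0.36 ± 0.18 that did not pass (adjusted p 0.697). The strongest of the 7, chr12:3981398-3981445 on the minus strand, had a mean of 41.8 RPM at 1000 nM and 3.21 RPM at 1 nM without engagement, and a PD-1 effect of -1.04 (adjusted p 0.00125). Tmem88, a membrane protein gene, was nearest to 7 starts 9058 to 11994 bp upstream of its own start. All 7 rose and none passed the PD-1 test, with effects of -0.65 to -0.32, and Tmem88 rose by 2.02 ± 0.23 (adjusted p 2.62e-06). Around Ddx3x, an RNA helicase gene, the 5 starts had log2 differences of 0.18 to 0.72 at 1000 against 1 nM, none of which passed, although each had met the fold at 10000 against 0 nM.

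**Figure D3:**
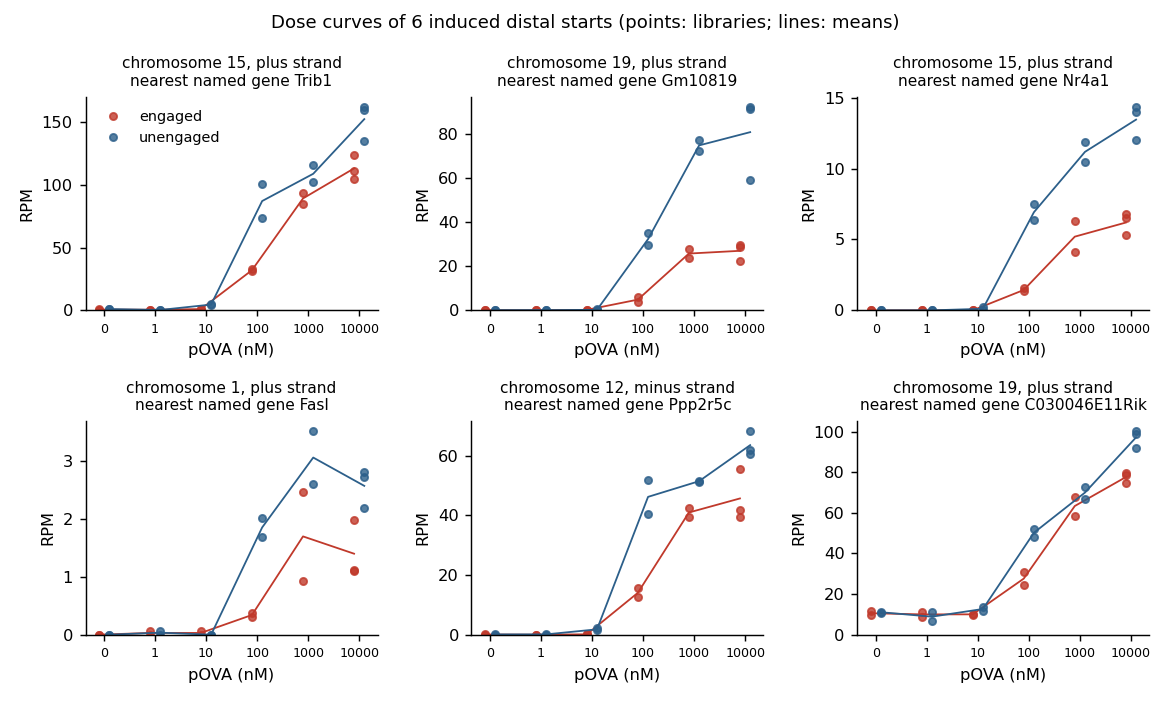
RPM of 6 induced distal starts in every hybridoma library against pOVA dose (nM), with engagement (red) and without (blue); points are libraries and lines join means. All 6 were higher at 100 nM than at 1 nM in both conditions; at 1000 nM engaged and unengaged libraries overlapped for the start near C030046E11Rik and did not for the other 5.

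With PD-1 engagement many of the starts were less active, though most did not pass the test singly. As the mean of 100 and 1000 nM, 131 of the 494 fell and none rose (limma, adjusted p under 0.05), where 1.59% of all clusters fell and 0.0888% rose. The median log2 effect was -0.43, against -0.0 over all clusters and -0.40 over the 515 single-symbol clusters with the same fold, of which 128 fell. Engaged libraries were all below unengaged ones at both doses for 226 starts, against 4.84% of all clusters. With engaged and unengaged libraries of the same replicate number paired, 210 starts fell and none rose (4.5% of all clusters fell and 1.98% rose). Without the engaged 100 nM library of replicate 1, 82 starts fell, and edgeR on whole tags called 86. The shares of all clusters under these last settings are not given here.

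By dose, 93 starts fell at 100 nM (1.09% of all clusters), 30 at 1000 nM (0.272%), 2 at 10 nM (0.0278%) and none at 1 nM (0.0%); none rose at these doses (0.0222% of all clusters at 100 nM, 0.00555% at 1000 nM). At 1 nM 2 starts were lower and 4 higher at an unadjusted p under 0.05 by limma and edgeR and DESeq2 also called 0. With the pairing, 143 fell and 1 rose at 100 nM (3.53% of all clusters fell and 0.422% rose), 108 fell and 2 rose at 1000 nM (2.19% fell and 2.93% rose), and 5 fell at 10 nM (0.117% fell and 0.0999% rose). The counts rested on few libraries. At 100 nM 29 fell without unengaged replicate 1, 56 without unengaged replicate 2 and 35 without engaged replicate 1. At 1000 nM 13 and 9 fell without unengaged replicates 1 and 2, and 14 without either engaged replicate. With edgeR, 51 fell at 100 nM and 8 at 1000 nM. Shares of all clusters with edgeR or with a library left out are not given here. The difference between the 2 PD-1 effects, 1000 minus 100 nM, passed for no start by limma (0.0% of all clusters higher and 0.00555% lower), with 53 higher and 15 lower at an unadjusted p under 0.05. It was higher for 3 starts by DESeq2, for none by edgeR, and for 10, with 1 lower, with the pairing (0.866% of all clusters higher, 0.228% lower). At 0 and 10000 nM the unengaged libraries had also chosen the starts. The library medians there were 0.5 and 0.48 RPM in engaged and 0.56 and 0.47 RPM in unengaged libraries at 0 nM, and 3.31, 3.15 and 3.655 RPM in engaged and 4.37, 4.38 and 5.27 RPM in unengaged libraries at 10000 nM.

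**Figure D4:**
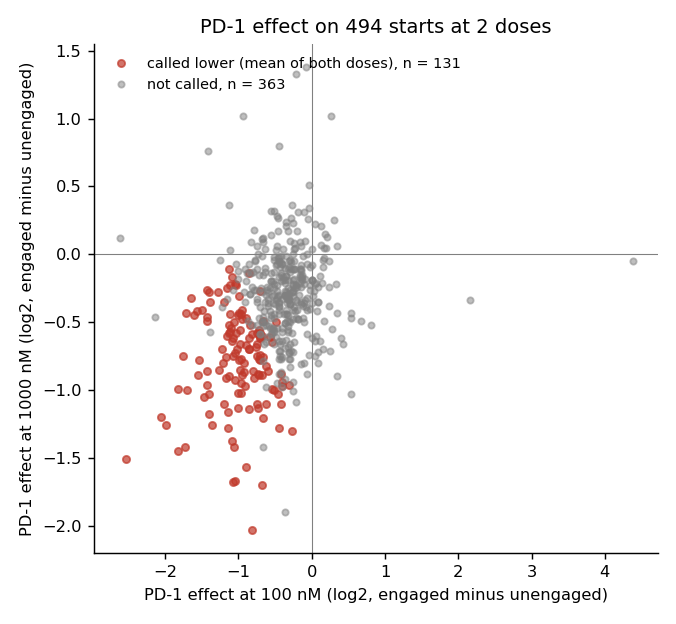
PD-1 effect (log2, engaged minus unengaged) on each of the 494 starts at 100 nM (horizontal) and 1000 nM (vertical), which share no library; red points are the 131 starts called lower on the mean of both doses. Most points lie below and to the left of 0, and the starts far to the right or above are not called.

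The share of the rise that was lost with engagement was computed from 1 nM, a dose the choice of starts did not use, over 100 and 1000 nM together. For the 433 starts whose unengaged rise averaged at least 1 RPM over both doses, its median was 45.1% (quartiles 30.5 and 58.4%). It was over 50% for 180. The unengaged libraries of 100 and 1000 nM both set this cut and formed the denominator, so the share may be too high. With cuts of 0.5 and 2 RPM the medians were 43.7% and 43.5%. Taking replicate 1 and replicate 2 alone gave 50.1% and 43.0%. At 100 nM alone the median was 60.6% (348 starts) and at 1000 nM alone 39.2% (458 starts). For single-symbol clusters with the same fold, the medians were 59.3% at 100 nM and 28.5% at 1000 nM, with 40.9% over both. No test was made between these medians.

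Beside those already described, the starts with the most negative PD-1 effects were low at 100 nM with engagement. The start chr7:35197878-35197880 on the plus strand, 23153 bp from Lsm14a, had 0.23 and 0.29 RPM in engaged and 4.82 and 2.42 RPM in unengaged libraries at 100 nM, and 4.3 and 4.32 RPM in engaged and 12.8 and 14.2 RPM in unengaged libraries at 1000 nM. Its PD-1 effect was -1.63 ± 0.14 (adjusted p 1.62e-06). The start chr6:65475320-65475358 on the plus strand, 380483 bp from Hpgds, had 0.86 and 0.73 RPM in engaged and 6.33 and 5.88 RPM in unengaged libraries at 100 nM, and an effect of -1.62 ± 0.12 (adjusted p 4.91e-07). In neither start did engaged and unengaged libraries overlap at 100 nM. Effects of -1.58 to -1.37 were found at chr19:59116404-59116455 on the minus strand (inside 4930506M07Rik), chr6:101469493-101469623 on the plus strand (685832 bp from Ppp4r2), chr3:134961817-134961940 on the plus strand (86212 bp from Cenpe) and chr3:103713301-103713301 on the plus strand. The last lay 5138 bp upstream of Rsbn1 and, on the same strand, inside the length of Ptpn22, a phosphatase gene known to restrain T cell receptor signalling. It had 2.94 and 3.66 RPM in engaged and 14.5 and 11.1 RPM in unengaged libraries at 1000 nM, which did not overlap. Ptpn22 itself rose by 2.04 ± 0.16 (adjusted p 2.68e-08, limma) and fell by 0.66 ± 0.12 with engagement (adjusted p 0.00316). Here too, a separate start and tags of the gene's own RNA cannot be told apart.

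Paired transcription in opposite directions was found for some starts. A start on the other strand, head to head and at most 1000 bp upstream, was present for 72 of 494 starts (14.6%), against 9.49% of all distal unnamed clusters, 20.2% of the single-symbol clusters with the same fold and 20.9% of all clusters. The partner was another induced distal start for 55, another unnamed cluster for 13 and a cluster with more than 1 gene for 4. In 22 pairs both starts were induced distal starts and each the other's nearest partner, 14 to 993 bp apart (median 187.5 bp). Between 1000 and 1 nM both starts of the pair rose in 18 pairs and 1 of the 2 in the other 4. The PD-1 effect was below 0 on both strands in 21 pairs and passed the test on both in 4.

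Strands of a pair were often unequal. At 1000 nM without engagement their means differed more than 2-fold in 6 of the 22 pairs. At the pair near Gm10819 the plus start was 26.33 times the minus start, and the minus start, chr19:16402525-16402675, had 1.49 and 1.02 RPM in engaged and 1.57 and 1.93 RPM in unengaged libraries at 100 nM, with a PD-1 effect of -0.53 ± 0.18 that did not pass (adjusted p 0.249). At the pair 12.6 kb upstream of Nr4a1 the ratio was 6.612, and at the most abundant pair beside Tmem88 it was 0.113. The pair at Fasl, whose product is the death ligand FasL, was balanced at 1.215, and both strands fell with engagement. Across the 22 pairs, Pearson's r between the strands was 0.275 for the response and 0.399 for the PD-1 effect, as a description of points that share all libraries. The pair with the highest summed level lay near Gm11400 at chr11:3004767-3004820 and chr11:3004985-3005000. It rose on the minus strand by 1.63 ± 0.26 (adjusted p 0.000123, limma), and on the plus strand its 0.69 ± 0.24 did not pass (adjusted p 0.0515). Both starts lie below position 3.2 Mb, among those called uncertain further below.

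Most starts had a named gene within reach. For 369 (74.7%) a single-symbol cluster lay within 100 kb, for 184 within 20 kb and for 87 within 5 kb. Within 100 kb, 164 lay downstream of it on the same strand, 97 upstream on the same strand, 51 downstream and 57 upstream on the other strand. Counting each gene's RefSeq length from its strongest named start (97.7% of 10098 symbols had a length), 177 starts (35.8%) lay inside a gene on its strand, 29 (5.9%) inside a gene on the other strand and 288 (58.3%) outside, against 51.7%, 7.2% and 41.0% of all distal unnamed clusters. Genes without a single-symbol cluster or a length were not considered, so outside means outside the genes that were. Lengths come from GRCm38.p6 and so only approximate mm9. Outside the genes considered, 239 of 288 starts rose and 93 fell with engagement, with a median PD-1 effect of -0.48. Inside genes on the same strand, 127 of 177 rose and 32 fell with engagement, with a median PD-1 effect of -0.33.

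The genes nearest within 100 kb were 231 symbols in 244 clusters. Between 1000 and 1 nM, 93 of these clusters rose (38.1%) and 19 fell, where 7.46% of all single-symbol clusters rose and 11.1% fell. Of those nearest to any distal unnamed cluster, 11.1% rose and 10.8% fell. With engagement, 32 fell (13.1%) and none rose, where 1.06% of single-symbol clusters fell and 0.0986% rose, and 2.33% of those nearest to any distal unnamed cluster fell and 0.0543% rose. The gene clusters that did not pass the response test included the strongest start of Dnmt3a. A start and its nearest gene need not be connected.

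Of 107 genes on a list of T cell activation genes, 83 were measured and 19 were nearest to 54 induced distal starts. Of the 54 starts 51 rose (94.4%) and 26 fell with engagement (48.1%), and of the other 440 starts 338 rose (76.8%) and 105 fell (23.9%). Nr4a1 accounted for 20 of the 54, and of the remaining 34 starts 31 rose and 16 fell. Of the 19 genes 18 rose and 10 fell with engagement, and of the other 64 measured genes of the list 39 rose and 18 fell. The list was chosen for activation, so its counts of rising genes are not independent evidence. Near Fasl, 4 starts lay 13.2 to 37.2 kb downstream of its start and outside its length. All 4 rose, by 1.72 to 2.13, and all 4 fell with engagement, by log2 effects of -1.01 to -0.72. The start chr1:163705331-163705411 on the minus strand had 0.23 and 0 RPM in engaged and 1.87 and 1.05 RPM in unengaged libraries at 100 nM, and 1 and 1.98 RPM in engaged and 3.73 and 3.36 RPM in unengaged libraries at 1000 nM. Engaged libraries lay below unengaged ones at both doses. Fasl itself had 35.2 and 27.3 RPM in engaged and 68.6 and 64.7 RPM in unengaged libraries at 1000 nM, with a PD-1 effect of -1.43 ± 0.12 (adjusted p 1.62e-06).

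Starts near transcription factor genes of the list differed in whether they passed the PD-1 test. Nr4a3, a relative of Nr4a1, had 3 starts, which all rose. Among them chr4:48060123-48060241 lay 2102 bp downstream of the strongest Nr4a3 start, on the gene's strand, and at -1700 bp from a nearer, weaker named start. It had 4.88 and 3.78 RPM in engaged and 10.2 and 7.62 RPM in unengaged libraries at 1000 nM. Its PD-1 effect was -1.22 ± 0.15 (adjusted p 0.000135, limma). Egr3, an early growth response factor gene, had 3 starts, which all rose. Among them chr14:70475557-70475668, at -1162 bp, fell by 0.86 ± 0.13 with engagement (adjusted p 0.000993), while the 2 starts inside the gene had effects of -0.48 and -0.49 that did not pass. Fosl2, an AP-1 subunit gene, had 3 starts that rose, 2 of which fell with engagement. The start near Runx1 rose by 2.08 and fell by 0.74 with engagement (adjusted p 0.00581). The 2 starts near Egr1 and 1 start each near Egr2, Rel and Tox within 100 kb rose, by 1.38 to 2.2, and none of these 5 passed the PD-1 test, with effects of -0.55 to -0.32. The start beside Junb, another AP-1 subunit gene, chr8:87500596-87500651, had 8.46 and 13.2 RPM in engaged and 10.8 and 13.7 RPM in unengaged libraries at 1000 nM, which overlapped, with a PD-1 effect of -0.16 ± 0.16 (adjusted p 0.998). The start 28.9 kb downstream of Spry1, a feedback inhibitor of receptor signalling, already stood at 15.3 and 12.8 RPM at 1 nM without engagement and rose by 0.95 ± 0.17 (adjusted p 0.000399), with a PD-1 effect of -0.5 ± 0.12 (adjusted p 0.0339). The stronger responder of 2 starts inside Ccl1, a chemokine gene, and on its strand rose by 3.41 ± 0.19 (adjusted p 2.96e-10). It fell by 0.78 ± 0.14 with engagement (adjusted p 0.00323). Ccl1 itself had 1.14 RPM at 1 nM and 1198 RPM at 1000 nM without engagement, and fell by 1.52 ± 0.37 with engagement (adjusted p 0.0364, limma). Whether the 2 starts are tags of the gene's own RNA cannot be told.

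Primary CD4+ T cells offered a view that the choice of starts did not use. A cluster of the CD4+ table on the same strand overlapped a start or lay within 50 bp for 100 of 494 starts (20.2%), against 29.1% of all distal unnamed clusters and 66.8% of single-symbol clusters with the same fold. The 100 starts matched 97 clusters. Between 10000 and 0 ng/ml 2C11 without engagement, 56 of the 97 rose and 7 fell (limma on the CD4+ table), where 26.2% of all its clusters rose and 38.2% fell. The median log2 difference was 0.83, against -0.15 over all CD4+ clusters. With PD-1 engagement (mean of 100, 1000 and 10000 ng/ml), 25 of the 97 fell and 7 rose, where 24.9% of all CD4+ clusters fell and 5.77% rose, so that the share that fell was near that of all clusters. Without the unengaged 100 ng/ml library of replicate 2 the count that fell was 16, and edgeR and DESeq2 each called 14. The shares of all CD4+ clusters under these settings are not given, so these counts cannot be set against them.

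The largest CD4+ response was at a start inside Gramd1b on its strand, chr9:40242748-40242750. Its CD4+ cluster had 23.1, 20.8 and 15.7 RPM with engagement and 30.2, 28 and 28.8 RPM without at 10000 ng/ml, and 1.16 and 0.768 RPM with engagement and 0.214 and 0.344 RPM without at 0 ng/ml. The response was 4.55 ± 0.18 (adjusted p 3.75e-13) and the PD-1 effect -0.8 ± 0.11 (adjusted p 5.61e-05). In the hybridoma this start had 0.79 and 0.9 RPM in engaged and 4.51 and 4.41 RPM in unengaged libraries at 1000 nM. The start 86212 bp from Cenpe responded by 4.31 ± 0.2 (adjusted p 3.01e-12, limma). The start 2102 bp downstream of the strongest Nr4a3 start responded by 3.52 ± 0.24 (adjusted p 4.5e-10, limma). The starts near Cwc27 and Tmem88 and a second one near Nr4a3 had CD4+ responses of 3.0, 2.92 and 2.77. Of the row at Nr4a1, 4 starts had a CD4+ match and 3 of the 4 rose, with 2.02 at the start 12.6 kb upstream.

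The row of 30 starts behaved differently in the CD4+ table. Only 4 of its 30 starts had a match, in 2 clusters, and neither rose. The cluster at the strongest start, chr15:59973458-59973598, had 10.6, 9.87 and 8.11 RPM at 10000 ng/ml and 11.8 and 12.3 RPM at 0 ng/ml, without engagement, a log2 difference of -0.32 ± 0.17 that did not pass (adjusted p 0.113 from limma). The start near Ppp2r5c had a CD4+ log2 difference of 0.53 ± 0.24 that did not pass either (adjusted p 0.0601). Doses, stimulus and normalization differ between the tables, so the values stand side by side without a test.

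**Figure D5:**
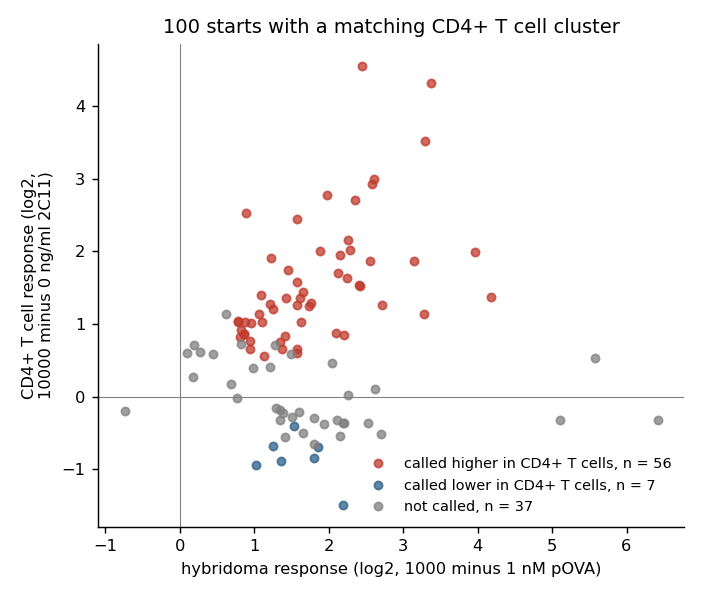
Response of 100 induced distal starts in the hybridoma (log2, 1000 minus 1 nM pOVA, horizontal) and of the matching CD4+ T cell cluster (log2, 10000 minus 0 ng/ml 2C11, vertical), both without engagement; red and blue mark clusters called higher (56) and lower (7) in CD4+ T cells and grey those not called. The points furthest right, from the row of 30 starts and near Ppp2r5c, lie near 0 in CD4+ T cells.

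Some starts met the fold without a stable level. In 9 starts libraries of a group differed by more than 10-fold (each plus 1 RPM), and 11 lay below position 3.2 Mb on chromosomes 9, 11 and 12, among them a row of 7 on chromosome 9. The 11 held 42.0% of the summed mean level of all 494 starts, so sums over the starts are not used here. How the authors treated reads that map to more than 1 place is not stated in the labels, and these starts are uncertain. Without these 19 starts, 475 remained, of which 385 rose between 1000 and 1 nM and 131 fell with engagement.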

How the data were processed

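Tag counts per cluster and library were deposited by the authors as RPM; BWA 0.7.12, HISAT2 2.0.5 and the build mm9 are named in the submitters' processing notes, without their roles. Read filters are not given in the sources used here. Dividing by the step of 1 tag recovered whole tags for at least 99.98% of values (within 0.1 tag). From the deposited RPM, log2(RPM + 1) was fitted for all 26 hybridoma libraries and, separately, 22 CD4+ libraries with limma 3.58.1 (R 4.3.3; trend, Benjamini-Hochberg over all clusters, adjusted p under 0.05), keeping clusters of at least 1 RPM in 2 libraries. Fold changes on this scale understate changes of low clusters. On simulated data for 1000 against 1 nM over 18014 clusters, 80 of 100 clusters changed 2-fold and 100 of 100 changed 4-fold were recovered. There were 11 false calls. For the CD4+ response over 17269 clusters, 76 and 100 of 100 were recovered. Only clusters with a mean of at least 2 RPM were changed, starting from that mean, with the same simulated spread for all. The 494 starts had a median mean of 2.18 RPM and a median of 0.63 RPM at 1 nM without engagement. Recovery of changes from such low levels was not tested. Alternatives were edgeR 4.0.16 and DESeq2 1.42.0 on recovered tags, quantile scaling, other pseudocounts and filters, a B cell marker covariate, and leaving out each library. Engaged and unengaged hybridoma libraries of a dose and replicate number deviated together (correlations 0.208 to 0.656, every pair over 0.1), so the numbers pair them, a hint from the data, and paired counts stand beside the PD-1 results where they differ by over 1.5 times. Named starts were taken by rule: largest responses, most negative PD-1 effects, highest divergent pairs, genes nearest to most starts, activation list neighbours, largest CD4+ responses; rows, Fasl, Egr3, Fosl2 and the Cd274 region were chosen after their values were seen. The starts and lists were chosen with earlier results of these data known. Positions are as deposited; whether they count from 0 or 1 is not given.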

Additional observations from a re-analysis of the deposited data

Results flagged for a closer look

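For 3 starts with a CD4+ match, every engaged library at the top dose lay above every engaged library at dose 0 in the hybridoma and below every one in CD4+ T cells, and the CD4+ response without engagement was called lower by limma. This difference between the cell types was not tested. The start near Ift80 (chr3:68588308-68588383) averaged 2.21 RPM at 10000 nM and 0.0 RPM at 0 nM in engaged hybridoma libraries, 1.01 RPM at 10000 ng/ml and 7.01 RPM at 0 ng/ml in engaged CD4+ libraries, and had a CD4+ response of -1.49. The start near Hadh (chr3:130926439-130926540) averaged 5.31 RPM at the top dose and 1.5 RPM at dose 0 in the hybridoma, and 3.54 RPM at the top dose and 10.31 RPM at dose 0 in CD4+ T cells, with a CD4+ response of -0.89. The start near Gm16517 (chr10:78880510-78880551) averaged 33.55 RPM at the top dose and 12.67 RPM at dose 0 in the hybridoma, and 18.88 RPM at the top dose and 22.91 RPM at dose 0 in CD4+ T cells, with a CD4+ response of -0.4. No group held 4 or more libraries, so single libraries were not screened as outliers.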

How the results depend on the processing

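The number of starts depends on the fold: 952 at 1.5, 256 at 3 and 168 at 4, and 249 with 3 RPM added in the fold; it ran from 421 (without 10000 nM replicate 3) to 611 (without 0 nM replicate 1) when a library was left out, and 464 had every 10000 nM library above both 0 nM libraries, an alternative added after the data were seen. Leaving out each library in turn, the starts that rose numbered 341 to 398 at 1000 against 1 nM, 212 to 296 at 100 against 1 nM, 1 to 2 at 10 against 1 nM and 361 to 429 at 10000 against 0 nM with engagement. The starts that fell with engagement numbered 82 to 138 (mean of both doses), 29 to 97 (100 nM), 9 to 32 (1000 nM) and 1 to 2 (10 nM), none at 1 nM, and for the difference between doses none passed. The matched CD4+ clusters that rose numbered 51 to 59 and those that fell with engagement 16 to 27. The median share of the rise lost ran from 41.6 to 48.9%; at 100 nM alone it was 60.6% and at 1000 nM alone 39.2%. With the replicate block pairing the libraries, the counts that fell were 210 (mean), 143 (100 nM), 108 (1000 nM) and 5 (10 nM), and 10 were higher in the difference; no other hybridoma count moved by over 1.5 times. The block is no pairing in the CD4+ table, where same-numbered libraries did not all deviate together. edgeR gave 86, 51 and 8 (mean, 100 and 1000 nM) and, like DESeq2, 14 for the CD4+ PD-1 effect. Except for the pairing, shares of all clusters under the alternatives are not given here. DESeq2 gave 4 at 10 against 1 nM, 4 for PD-1 at 10 nM and 3 in the difference; a pseudocount of 0.5 gave 18 at 1000 nM; the B cell marker covariate gave 1 in the difference. At most 300 bp, 43 starts had a divergent partner. Among 676 alternative values of named starts, 659 kept direction and side of the threshold, 16 newly passed it, 1 no longer passed and none reversed; the causes were not tested. A level of 1 RPM in a hybridoma library stands for 7.79 to 19.7 tags, which limits the precision of low starts.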
